A study of Mus musculus with 16 samples.

Results

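The genes described here are 9 genes of the microglial lysosome and of phagocytosis: Ctss, Ctsb, Ctsd, Lyz2, Laptm5, Cd68, Trem2, Tyrobp and Cd52. They were taken by name, as every probe whose RefSeq accession mapped to 1 of these symbols. The array held 10 such probes (2 for Cd68 and 1 for each other gene) among 32994 named probes of 22911 genes. All 10 probes were well above background on all 16 arrays, none was saturated, and the 9 genes were among the 17436 genes tested.

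The arrays measured total RNA of the cerebral cortex of 16 male mice on a C57BL/6 background, labelled as 28 to 42 weeks old, with 1 array per mouse and 4 mice per group. The groups were wild-type littermates after a sham exposure, wild-type mice after 6 Gy of whole-body gamma radiation (IR), Neil1-/- mice after a sham exposure, and Neil1-/- mice after the same 6 Gy, given at 0.74 Gy/min. Cortex was taken 20 h later, and the treatment protocol describes injections of BrdU, a thymidine analogue, at 100 mg/kg before the exposure and 2 h after it, naming no group without them. NEIL1 is a DNA glycosylase of base excision repair, the labels name no Cre or tissue for its deletion, and the series title names neuroinflammation after stress as one of its subjects. The deleted part of Neil1 is unknown from the labels, and its only probe read higher on the 8 arrays labelled knockout (-2.60 to -2.15) than on the 8 wild-type arrays (-4.32 to -3.30). That probe therefore does not check the labels, and these mice are called labelled knockout below.

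Microglia are the resident macrophages of the brain and clear debris, synapses and dying cells. Material taken up through surface receptors is delivered to lysosomes, where acid hydrolases such as the cathepsins and lysozyme digest it. TREM2 is a microglial receptor for lipids and lipoproteins that has no signalling tail of its own and works through the adaptor DAP12, the product of Tyrobp. LAPTM5 and CD68 are proteins of the lysosomal membrane, and CD52 is a small glycosylated peptide on the surface of leukocytes. In the brain Ctss, Trem2, Tyrobp and Laptm5 are used as microglial genes, whereas Ctsb and Ctsd are expressed in neurons and glia as well.

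Promoter windows from RefSeq (GRCm38.p6, 250 bases before the start of the transcript to 50 bases after it) were at hand for 6 of the 9 genes, all but Ctsb, Tyrobp and Cd52. The 4 shown here belong to Ctss, the gene that passed the test below, to Laptm5 and Trem2, which differed in opposite directions, and to Ctsd, a broadly expressed hydrolase. Each runs 5' to 3' on the strand of the gene, over the 250 bases before the start and the first 6 transcribed bases. Capitals mark GAGGAA or its reverse complement TTCCTC, a core sequence bound by the myeloid factor PU.1 and other ETS proteins, and CACGTG, the E-box at the centre of the element bound by TFEB, a regulator of lysosomal genes. The windows are Ctss on chr3:95526536-95526791 (+ strand), Laptm5 on chr4:130913066-130913321 (+), Trem2 on chr17:48346151-48346406 (+) and Ctsd on chr7:142387822-142388077 (- strand).
Ctss: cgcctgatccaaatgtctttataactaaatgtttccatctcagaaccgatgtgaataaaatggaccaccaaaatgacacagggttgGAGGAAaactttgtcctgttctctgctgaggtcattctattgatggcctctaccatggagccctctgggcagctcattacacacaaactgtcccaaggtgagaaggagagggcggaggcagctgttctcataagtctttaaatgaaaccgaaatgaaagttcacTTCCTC
Laptm5: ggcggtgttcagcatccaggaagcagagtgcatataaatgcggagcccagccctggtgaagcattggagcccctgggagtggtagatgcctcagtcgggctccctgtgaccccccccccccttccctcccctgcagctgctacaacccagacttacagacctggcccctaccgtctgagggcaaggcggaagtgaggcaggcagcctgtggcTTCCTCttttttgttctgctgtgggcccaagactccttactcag
Trem2: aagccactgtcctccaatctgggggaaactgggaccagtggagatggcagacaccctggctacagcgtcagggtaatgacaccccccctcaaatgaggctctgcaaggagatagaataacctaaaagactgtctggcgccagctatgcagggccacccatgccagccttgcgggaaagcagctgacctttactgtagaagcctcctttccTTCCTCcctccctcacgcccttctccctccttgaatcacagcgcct
Ctsd: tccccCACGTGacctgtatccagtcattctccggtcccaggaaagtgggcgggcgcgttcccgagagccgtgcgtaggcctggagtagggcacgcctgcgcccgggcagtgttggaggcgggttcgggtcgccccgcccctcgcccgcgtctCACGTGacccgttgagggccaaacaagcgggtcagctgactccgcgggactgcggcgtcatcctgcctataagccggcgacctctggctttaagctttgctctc

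Over the whole 300-base windows, Ctss and Cd68 each held 2 matches to GAGGAA on either strand, Laptm5 and Trem2 held 1 each, and Ctsd and Lyz2 held none. Counting the start as 0, 1 match of Ctss began at -164 and the other lay on its first transcribed bases. The match of Laptm5 began at -38 and that of Trem2 at -40. Of 32851 RefSeq promoter windows of the same length, 28.3% held GAGGAA on 1 strand or the other. CACGTG was found only in Ctsd among the 6 windows, with 2 matches that began at -245 and -98, and 7.15% of all windows held it. The start used for Laptm5 lies inside the annotated span of the gene. These matches describe the letters in a window, and a window without a match says only that the letters are not there.

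Every level below is the log2 of a probe's processed signal minus the 75th percentile of its array, so that 0 is the brightness of that percentile, and every change is a difference of such levels between group means. Probes differ in how strongly they bind, so levels are compared between mice for 1 probe and not between genes. In cortex RNA, fewer microglia and less RNA of a gene per cell cannot be told apart. Pairs of arrays correlated with r from 0.972 to 0.993, and the 75th percentile of intensity ran from 1976 to 2725 on the wild-type arrays and from 1075 to 2240 on the labelled knockout arrays. All wild-type samples lay on 1 slide and all labelled knockouts on another, scanned separately, so genotype cannot be told apart from slide or scan. Within each slide the sham samples filled 1 row and the irradiated samples the other, so irradiation cannot be told apart from slide row. The 19 microglial marker genes listed as a check of cell type were all tested, among them P2ry12, Tmem119, Cx3cr1 and Csf1r, so microglial RNA was measurable in this tissue.

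Of the 9 genes, 1 passed the test for irradiation: Ctss fell by 0.43 on the log2 scale when the change was averaged over both genotypes, which is 1.35-fold lower. The other 8 did not pass, and they did not share a direction. Trem2, Tyrobp and Cd52 were lower by 0.13 to 0.19 in the mean of the irradiated groups, and Ctsb, Ctsd, Cd68, Lyz2 and Laptm5 were higher by 0.044 to 0.33. The median change of the 9 genes was 0.044, beside 0.0043 over all genes tested. limma called 0.304% of all genes in this averaged comparison at an adjusted p under 0.05, and 0.138% of all genes as lower. Of the 9 genes 3 had an unadjusted p under 0.05 (Ctss and Trem2 lower, Laptm5 higher), beside 5% of all genes.

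In each genotype taken alone none of the 9 genes passed at an adjusted p under 0.05 in limma. In wild type 2 of them had an unadjusted p under 0.05 (Ctss lower, Laptm5 higher), where limma called 0.0746% of all genes and 1.97% had an unadjusted p under 0.05. In labelled knockouts 2 had an unadjusted p under 0.05 (Ctss lower, Lyz2 higher), where 0.12% of all genes were called and 4.63% had an unadjusted p under 0.05. The 95% intervals of the changes in the plot of changes by gene show Ctss alone lying below 0 in wild type, in labelled knockouts and in their average.

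**Figure D1:**
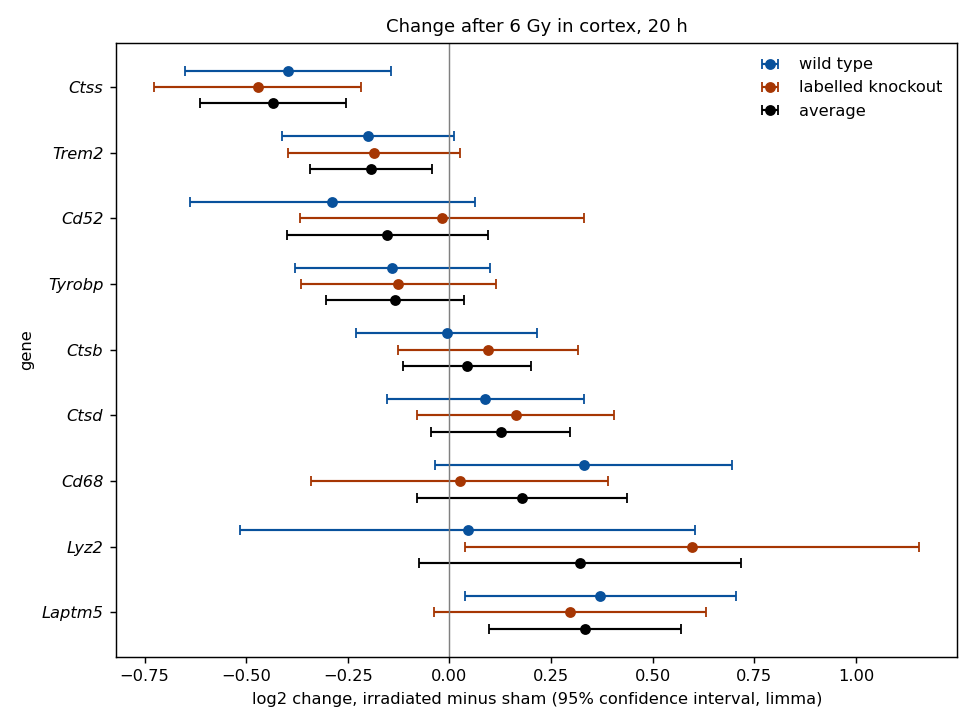
Change of each of the 9 genes 20 h after 6 Gy, as irradiated minus sham on the log2 scale (x axis), in wild type, in labelled knockouts and averaged over both, with 95% confidence intervals from limma (4 mice per group). Ctss lies below 0 in all 3 comparisons, Trem2 below 0 and Laptm5 above 0 in the average, and the intervals of Ctsb, Ctsd, Cd68, Tyrobp and Cd52 include 0 throughout.

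Ctss encodes cathepsin S, a cysteine protease of antigen-presenting cells that keeps its activity at neutral pH and trims the invariant chain of MHC class II. In wild-type sham cortex its level was 3.99, 4.40, 4.25 and 4.26 in replicates 1 to 4 (mean 4.22 ± 0.17, SD, n = 4), and in irradiated wild-type cortex 3.60, 3.75, 4.07 and 3.88 (3.83 ± 0.20, n = 4). In labelled knockouts it was 4.09, 4.01, 4.01 and 3.83 after sham (3.99 ± 0.11, n = 4) and 3.34, 3.48, 3.62 and 3.61 after irradiation (3.51 ± 0.13, n = 4). The 4 irradiated labelled knockouts all lay below the 4 sham ones, whereas in wild type the irradiated replicate 3 lay above the sham replicate 1. The change was -0.40 ± 0.12 (SE) in wild type (95% interval -0.65 to -0.14) and -0.47 ± 0.12 in labelled knockouts (-0.73 to -0.22), and the difference between them was -0.075 ± 0.17 (-0.43 to 0.28). Averaged over both it was -0.43 ± 0.084, with a 95% interval of -0.61 to -0.25 and an adjusted p of 0.046, the 49th smallest p of 17436.

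That adjusted p lay close to the threshold. It passed in 11 of 29 alternatives and not in 18. Of the 29, 16 left out a single array, and these gave 13 of the 18 losses. Among them, the call held only without replicate 1 of wild-type sham, replicate 3 of irradiated wild type or replicate 4 of labelled knockout sham. Over the 16 arrays left out, the adjusted p in limma ran from 0.023 to 0.12. The change itself stayed between -0.49 and -0.40 in the settings on the log2 signal scale.

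Ctsb encodes cathepsin B, a cysteine protease of nearly all cells, and Ctsd encodes cathepsin D, the main aspartic protease of lysosomes. Ctsb ran from 5.11 to 5.38 in wild-type sham, 5.12 to 5.41 in wild type after IR, 5.17 to 5.48 in labelled knockout sham and 5.31 to 5.62 in labelled knockouts after IR. Its averaged change was 0.044 ± 0.073, with a 95% interval of -0.11 to 0.20 that leaves out a change as large as that of Ctss. Ctsd ran from 3.77 to 4.02, 3.88 to 4.16, 3.87 to 4.23 and 3.98 to 4.38 in the same order of groups, and its averaged change was 0.13 ± 0.080 (95% interval -0.046 to 0.30). The groups overlapped for both genes, and both means were highest in irradiated labelled knockouts.

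Lyz2 encodes lysozyme 2, an enzyme that cleaves bacterial cell walls and is abundant in monocytes, macrophages and granulocytes. Its probe was dim, with a processed intensity of 75.4 to 190. Lyz2 read -4.01, -4.07, -4.33 and -4.04 in wild-type sham, -4.33, -4.55, -3.62 and -3.78 in wild type after IR, -4.26, -4.25, -3.64 and -3.77 in labelled knockouts after sham, and -3.22, -4.08, -2.77 and -3.48 in labelled knockouts after IR. Of the irradiated labelled knockouts 3 lay above all 4 of their sham group and replicate 2 lay within it. The change was 0.60 ± 0.26 there (95% interval 0.037 to 1.16) and 0.045 ± 0.26 in wild type (-0.51 to 0.60), and the difference between the genotypes was 0.55 ± 0.37 (-0.24 to 1.34). Lyz1 is a closely related copy of the gene, and whether the probes of the pair also bind each other's RNA was not tested. The Lyz1 probe was at 0.23 ± 0.21 on average, which did not pass. Its difference between genotypes after irradiation was -0.39 ± 0.30 (labelled knockout minus wild type), beside 0.68 ± 0.26 for Lyz2.

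Beside Lyz2, the genes of monocytes and neutrophils and those of red cells also had median changes above 0, and their part in the Lyz2 values was not tested. Of 12 monocyte and neutrophil genes 11 were tested, 10 of these were higher on average, none passed, and their median was 0.56, with 0.25 in wild type and 0.87 in labelled knockouts. Their summed signal, in units of the 75th percentile, was 8.70 to 10.6 in wild-type sham, 8.99 to 12.0 in wild type after IR, 6.16 to 9.86 in labelled knockout sham and 8.36 to 11.7 in labelled knockouts after IR. The 2 with the smallest p were Ly6c2, a surface antigen of inflammatory monocytes (0.31 ± 0.12), and Chil3, a chitinase-like protein of myeloid cells (0.99 ± 0.47). Ccr2, the chemokine receptor that marks circulating monocytes, was well above background on only 3 arrays. Of the genes tested, Retnlg was well above background on 11 arrays, Ngp and Ltf on 13 and Chil3 on 14. The medians given for this list are the values of Ngp. The mean log2 level of the 11 genes ran from -4.95 to -2.24 in labelled knockout sham and from -3.69 to -2.58 in labelled knockouts after IR. Red cell genes (5 of 6 tested) had a median of 0.67 with none called, with 0.069 in wild type, where 2 of the 5 were lower, and 1.16 in labelled knockouts. In linear units their summed signal varied between single mice, from 4.82 to 65.1 in wild-type sham, 7.21 to 23.6 after IR, 1.65 to 59.6 in labelled knockout sham and 8.18 to 37.0 after IR.

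**Figure D2:**
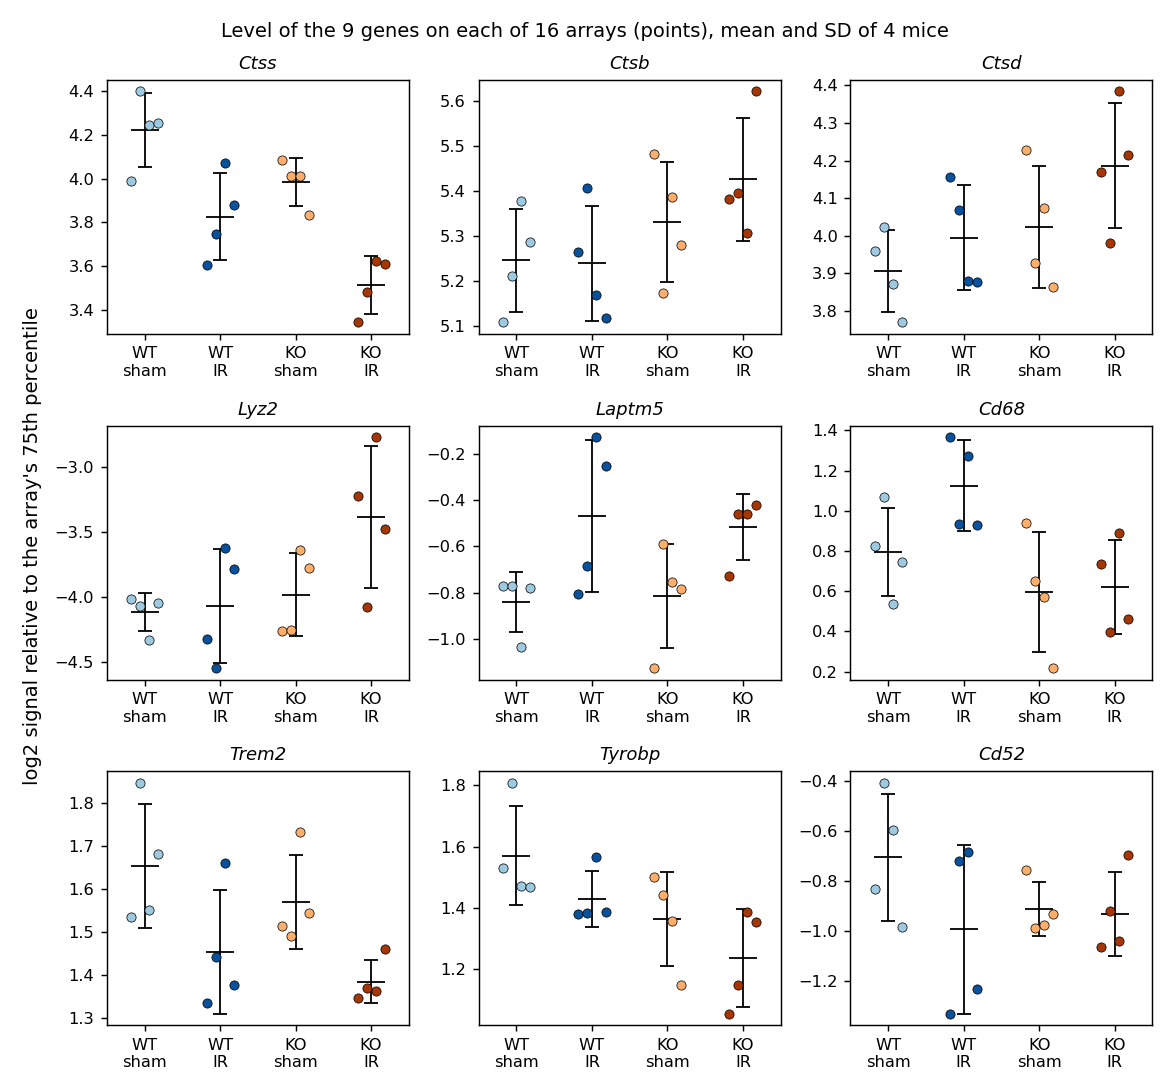
Level of the 9 genes (y axis, log2 signal relative to the 75th percentile of the array, with a scale of its own for each gene) on each of 16 arrays, with the mean and SD of 4 mice in wild-type (WT) and labelled knockout (KO) sham and irradiated (IR) groups. Ctss is lower in both irradiated groups than in their sham groups, Laptm5 is higher in most irradiated mice, and Ctsb and Ctsd overlap across all 4 groups.

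Laptm5 encodes a lysosomal membrane protein of blood-derived cells and microglia that steers antigen receptors to degradation. It read -0.77, -0.77, -1.04 and -0.78 in wild-type sham (mean -0.84 ± 0.13, n = 4) and -0.81, -0.69, -0.13 and -0.25 in wild type after IR (-0.47 ± 0.33, n = 4). In labelled knockouts it read -1.13, -0.59, -0.75 and -0.78 after sham (-0.81 ± 0.23, n = 4) and -0.73, -0.46, -0.46 and -0.42 after irradiation (-0.52 ± 0.14, n = 4). In each genotype 3 of 4 irradiated mice lay above all 4 sham mice, and irradiated replicate 1 lay within the sham range. The averaged change of 0.33 ± 0.11 had an unadjusted p of 0.0088 and did not pass (adjusted p = 0.60). Its values in the genotypes were 0.37 ± 0.16 and 0.30 ± 0.16.

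CD68, or macrosialin, is a heavily glycosylated protein of late endosomes and lysosomes that is widely used to stain phagocytes. Its brighter probe, which stands for the gene in the fit, read 0.83, 1.07, 0.54 and 0.75 in wild-type sham and 1.37, 0.93, 1.27 and 0.93 in wild type after IR. It read 0.94, 0.65, 0.57 and 0.22 in labelled knockouts after sham and 0.74, 0.40, 0.89 and 0.46 in labelled knockouts after IR. Sham and irradiated mice overlapped in both genotypes, and the changes were 0.33 ± 0.17 in wild type (95% interval -0.034 to 0.70) and 0.025 ± 0.17 in labelled knockouts (-0.34 to 0.39). The other Cd68 probe gave 0.40 ± 0.23 and 0.19 ± 0.23 for the same changes, and over both genotypes it gave 0.29 ± 0.16 beside 0.18 ± 0.12 for the brighter one.

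Trem2 read 1.54, 1.85, 1.55 and 1.68 in wild-type sham (mean 1.65 ± 0.14, n = 4) and 1.34, 1.44, 1.66 and 1.38 in wild type after IR (1.45 ± 0.14, n = 4). In labelled knockouts it read 1.51, 1.49, 1.73 and 1.54 after sham (1.57 ± 0.11, n = 4) and 1.35, 1.37, 1.36 and 1.46 after irradiation (1.38 ± 0.051, n = 4). The labelled knockout groups did not overlap, and in wild type 3 of 4 irradiated mice lay below all sham mice. The averaged change of -0.19 ± 0.070 had an unadjusted p of 0.015 and did not pass (adjusted p = 0.73). Together, 2 of the 9 genes, Ctss and Trem2, were lower in labelled knockouts with no overlap between the groups, where 1.03% of all genes were. In wild type none of the 9 had groups that did not overlap, where 1.97% of all genes had.

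Tyrobp, whose product passes the signal of TREM2 to the kinase SYK, ran from 1.47 to 1.81 in wild-type sham, 1.38 to 1.57 in wild type after IR, 1.15 to 1.499 in labelled knockout sham and 1.05 to 1.39 in labelled knockouts after IR. Its changes were -0.14 ± 0.11 and -0.13 ± 0.11, and the average was -0.13 ± 0.079 (95% interval -0.30 to 0.037). Cd52 ran from -0.98 to -0.41, -1.33 to -0.68, -0.99 to -0.76 and -1.07 to -0.70 in the same order. Its changes were -0.29 ± 0.16 in wild type (95% interval -0.64 to 0.062) and -0.018 ± 0.16 in labelled knockouts (-0.37 to 0.33), and all 4 groups overlapped.

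Cd52 is also a gene of lymphocytes, and 2 of 7 lymphocyte genes tested fell on average: Il7r, the interleukin-7 receptor, by 0.98 ± 0.13 (adjusted p = 0.0022), and Cd79b, which signals for the B cell receptor, by 0.74 ± 0.11 (adjusted p = 0.0041). In all, 4 of the 7 were lower and 3 higher, with a median of -0.062. In wild type 5 were lower (median -0.40), and in labelled knockouts 5 were higher (median 0.24), with none called within a genotype. Of the 12 genes listed, Cd3g and Cd79a were well above background on no array, Ms4a1 on 1 array, and Trac was not named on the array. The summed signal of the 7 was 5.77 to 8.31 in wild-type sham, 6.50 to 8.84 in wild type after IR, 5.37 to 8.08 in labelled knockout sham and 6.50 to 9.02 in labelled knockouts after IR. Their part in the Cd52 values was not tested.

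Between genotypes none of the 9 genes passed at an adjusted p under 0.05 in limma. In sham cortex 0.0516% of all genes were called, and none of the 9 had an unadjusted p under 0.05, beside 7.69% of all genes. After irradiation 1.18% of all genes were called, and 3 of the 9 had an unadjusted p under 0.05, beside 16.6% of all genes. These were Ctss (-0.31 ± 0.12, labelled knockout minus wild type, adjusted p = 0.19), Cd68 (-0.50 ± 0.17, adjusted p = 0.15) and Lyz2 (0.68 ± 0.26, adjusted p = 0.20). Cd68 was the 1 gene of the 9 whose irradiated groups did not overlap, with the labelled knockouts lower, where 4.44% of all genes were. The other Cd68 probe gave -0.033 ± 0.23 for that comparison, and its groups overlapped. For the interaction of genotype and irradiation limma called 0% of all genes, and none of the 9 had an unadjusted p under 0.05, beside 1.27% of all genes.

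The order of the 4 group means differed from gene to gene. Ctss and Trem2 were highest in wild-type sham, then labelled knockout sham, irradiated wild type and irradiated labelled knockout. Ctsb and Ctsd were highest in irradiated labelled knockouts, Cd68 and Laptm5 in irradiated wild type. For Ctsb and Ctsd this depended on the scaling. With the array median, labelled knockout minus wild type after irradiation was -0.016 for Ctsb and -0.012 for Ctsd, beside 0.19 for each as reported. Every pair of neighbours in the orders relative to the 75th percentile overlapped in their single values, for all 9 genes.

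Most, but not all, microglial marker genes outside the 9 were lower in the mean of the irradiated groups. Of 19, 15 were lower and 4 higher on average, with a median of -0.20 beside 0.0043 over all genes tested. In limma 7 of them had an unadjusted p under 0.05, all lower, beside 5% of all genes. Only 1 passed, where 0.304% of all genes were called. This was P2ry12, the purinergic receptor of resting microglia, which fell by 0.69 ± 0.072 (adjusted p = 0.00022). P2ry12 also passed within each genotype, at -0.62 ± 0.10 (adjusted p = 0.036) and -0.76 ± 0.10 (adjusted p = 0.0053). Slc2a5, a fructose transporter, had the next smallest p (-0.75 ± 0.15, adjusted p = 0.060). The mean level of the 19 markers on an array was 0.86 to 1.08 in wild-type sham, 0.68 to 0.82 in wild type after IR, 0.76 to 0.97 in labelled knockout sham and 0.57 to 0.76 in labelled knockouts after IR. The part of this shift in the values of the 9 genes was not tested.

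Set against that marker mean on the same array, the 9 genes took different positions, which are given as a description without a test. The averaged difference between irradiated and sham was -0.22 for Ctss, beside -0.43 relative to the 75th percentile. Trem2 was at 0.027, Tyrobp at 0.086 and Cd52 at 0.066, near the markers themselves. Ctsb was at 0.26, Ctsd at 0.34, Cd68 at 0.40, Lyz2 at 0.54 and Laptm5 at 0.55. The marker mean itself was lower after irradiation, 0.73 against 0.96 in wild type and 0.65 against 0.87 in labelled knockouts, so a gene that kept its place relative to the 75th percentile reads above 0 on this scale, and the median of all genes was 0.22. Ctsb at 0.26 thus lay near that median. Relative to the markers, Laptm5 and Cd68 were higher in irradiated wild type with no overlap, where 13.6% of all genes were. In labelled knockouts Laptm5 was higher with no overlap, where 10.6% of all genes were, and Ctss was lower with no overlap, where 0.126% were. Ctss lay within the range of the single markers. Relative to the 75th percentile Csf1r was at -0.44, Cd53 at -0.58, P2ry12 at -0.69 and Slc2a5 at -0.75 on average. The other markers fell less than Ctss or were higher, and 4 of the 19 were higher. Without P2ry12 among the markers the averaged values were -0.24 for Ctss and 0.53 for Laptm5.

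**Figure D3:**
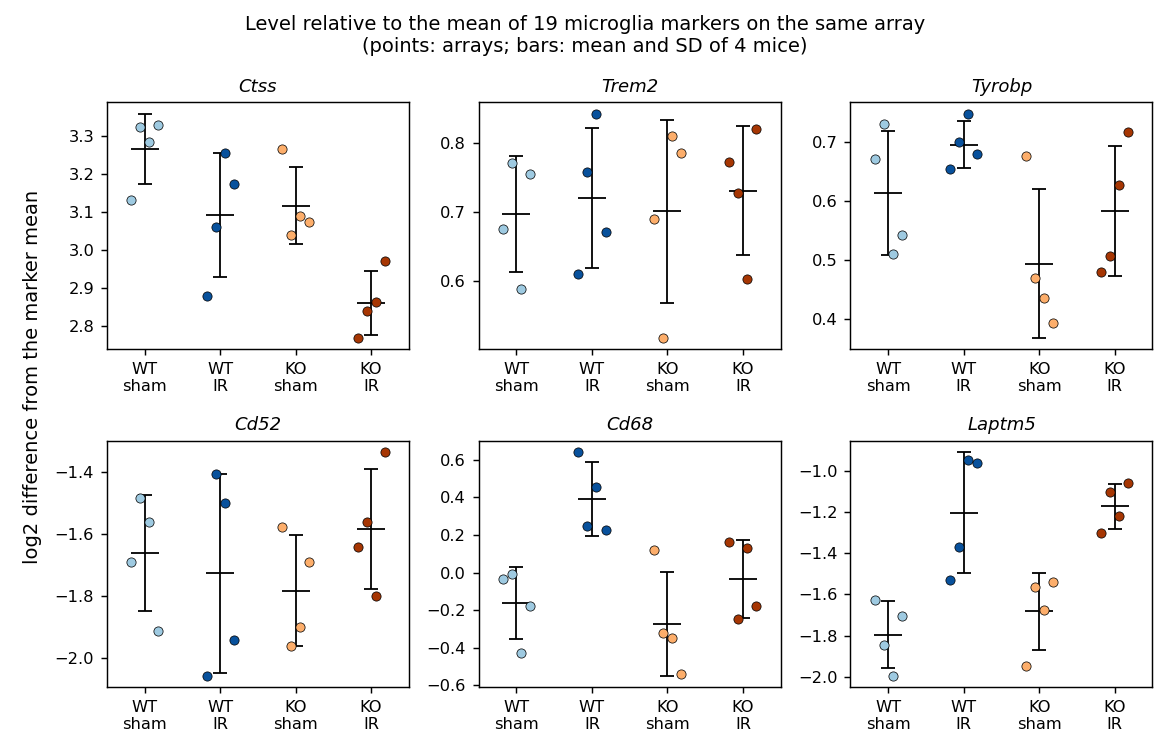
Level of 6 of the genes relative to the mean of 19 microglial markers on the same array (y axis, log2 difference), on each of 16 arrays, with the mean and SD of 4 mice per group. Trem2 and Tyrobp overlap between sham and irradiated mice, Laptm5 is higher in the irradiated mice of both genotypes with no overlap, and Ctss is lower in irradiated labelled knockouts. The median of all genes lies 0.22 higher after irradiation on this scale, because the marker mean was lower.

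In the averaged irradiation comparison no other gene listed for the lysosome was called. Of 34 hydrolases and their activators, 20 were higher and 14 lower on average, none passed, and the median was 0.016, close to the 0.0043 of all genes. Sgsh, a sulfatase of heparan sulfate breakdown, was at 0.35 ± 0.16. Of 18 genes of the lysosomal membrane and its biogenesis 17 were tested, 13 higher and 4 lower, none passed, and the median was 0.044. Those with the smallest p were the cholesterol exporter Npc1 (-0.18 ± 0.096) and the membrane glycoprotein Lamp2 (-0.15 ± 0.092), while Atp6v0d2 was well above background on no array. Of 7 cathepsin inhibitors 6 were higher and none passed, with a median of 0.073. Cst7, which encodes cystatin F (0.46 ± 0.17, adjusted p = 0.79), and the serpin Serpinb6b (0.29 ± 0.11, adjusted p = 0.86) had an unadjusted p under 0.05, where 5% of all genes did.

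Genes that work around TREM2 and DAP12 had none called in that comparison either. Of 17 listed 16 were tested, 9 lower and 7 higher, with a median of -0.011. The smallest p belonged to the adaptor Lat2 (-0.32 ± 0.097, adjusted p = 0.47) and to Inpp5d, the lipid phosphatase SHIP1 (-0.16 ± 0.070, adjusted p = 0.92), both lower. Of 26 genes of phagocytic receptors and engulfment 23 were tested, 15 lower and 8 higher, none passed, and the median was -0.016. Pros1, the bridging protein S that links dying cells to TAM receptors, was at 0.48 ± 0.12 (adjusted p = 0.18), and Cd14, the lipopolysaccharide co-receptor, at -0.33 ± 0.092 (adjusted p = 0.34). The scavenger receptor Msr1 and the phosphatidylserine receptor Timd4 were not well above background on any array, and Clec7a was not named on it.

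The 5 subunits of the phagocyte oxidase had 4 lower and 1 higher, with a median of -0.14 and none called, with Ncf4 at -0.14 ± 0.059 and Cyba at 0.13 ± 0.066. Cybb, 1 of the 4 lower, was well above background on only 4 arrays. It was at -0.71 in wild type and 0.30 in labelled knockouts. Of 15 genes that mark disease-associated microglia 14 were tested, 9 lower and 5 higher, with a median of -0.051 and none called. Lilrb4a, an inhibitory receptor, was at 0.62 ± 0.17 (adjusted p = 0.34) and the chemokine Ccl6 at -0.40 ± 0.11 (adjusted p = 0.38). The 8 border macrophage genes had 3 lower and 5 higher, with a median of 0.0075 and none called.

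**Figure D4:**
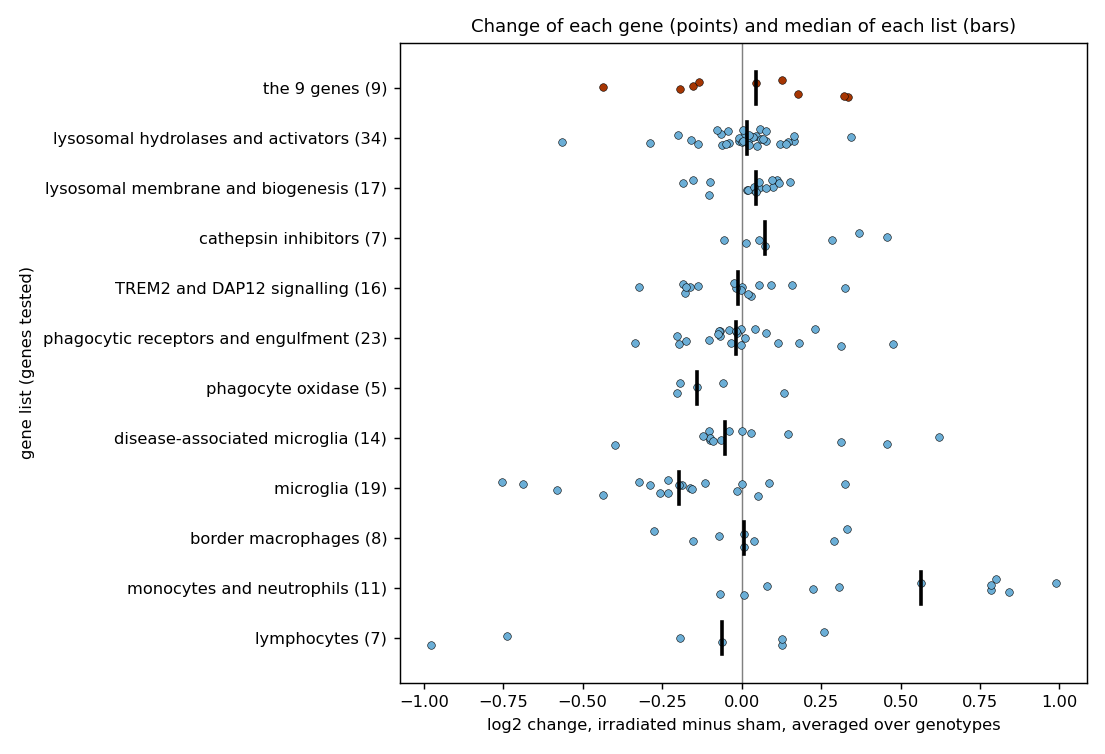
Change of each gene after irradiation, averaged over genotypes (x axis, log2, irradiated minus sham), for the 9 genes and 11 gene lists (rows, with the number of genes tested), where bars mark the median of a list. The 9 genes spread to both sides of 0 with a median of 0.044, microglial markers have a median of -0.20 and monocyte and neutrophil genes one of 0.56.

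Variation among mice of 1 group gave a further view of the 9 genes. With the mean of each group taken off, the 36 pairs of genes had a median Pearson r of 0.24 over 16 arrays, 28 of them positive and 8 negative. None passed a permutation test within groups (100000 permutations, two-sided) after Benjamini-Hochberg adjustment over the 36 pairs. The highest r was that of Ctss with Tyrobp, at 0.75 (permutation p = 0.0022, adjusted p = 0.079), with a Spearman rho of 0.74 (permutation p = 0.0045, adjusted p = 0.16), and r was 0.86 without the 2 arrays farthest from the median of Ctss. Ctsd with Cd68 had an r of 0.69 (permutation p = 0.013, adjusted p = 0.23) and Ctss with Trem2 one of 0.65 (permutation p = 0.025, adjusted p = 0.23). Without the 2 arrays farthest from the median of the first gene these were 0.58 and 0.54. Trem2 with Tyrobp had an r of 0.49 and Trem2 with Cd52 one of 0.55, which were 0.13 and 0.25 without such arrays, so both rest on those arrays. The lowest was that of Ctsb with Laptm5, at -0.56 (permutation p = 0.045, adjusted p = 0.27). Values of 1 array share its RNA, labelling and scaling.

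**Figure D5:**
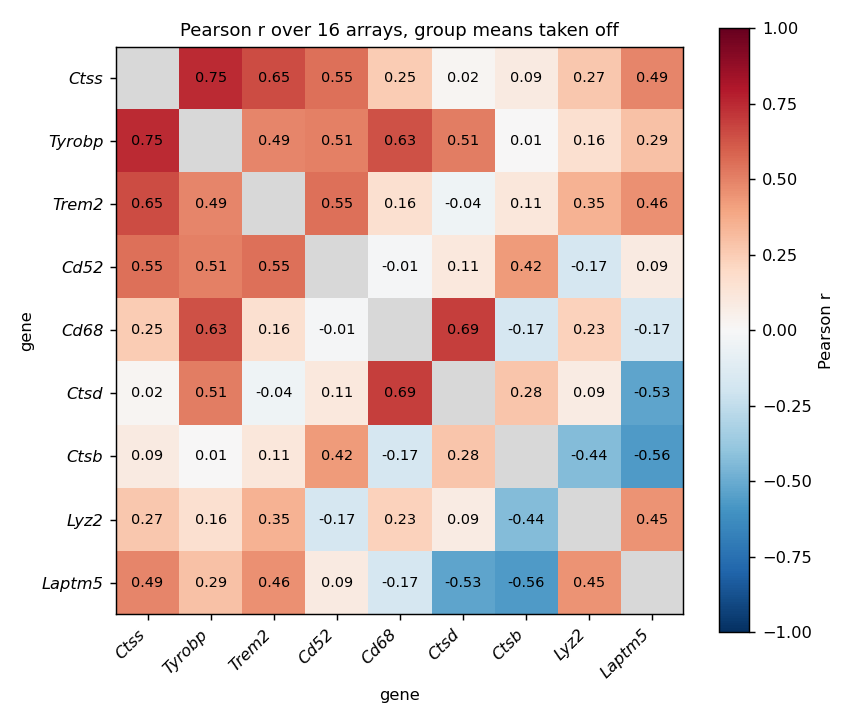
Pearson r between the 9 genes over 16 arrays with the group means taken off, as numbers and colours from -1 to 1. Ctss, Tyrobp, Trem2 and Cd52 have r from 0.49 to 0.75 with each other, of which those of Trem2 with Tyrobp and with Cd52 rest on 2 arrays, and Laptm5 has negative r with Ctsb and Ctsd.

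The 5 genes outside the set whose values followed the mean of the 9 most closely over the 16 arrays, group means taken off, were Pmel (r = 0.90), Tmem51 (0.85), Irak3 (0.84), Dock8 (0.84) and Qprt (0.84). They were picked from all genes tested for this likeness, so the values are a description and carry no test. Of the 9 genes themselves, Tyrobp (0.83), Ctss (0.79) and Trem2 (0.74) were closest to that mean, which contains them, and Ctsb (-0.043) was farthest from it.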

How the data were processed

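RNA of 16 cortices was measured on 1-colour Agilent arrays. Per the file headers, the authors extracted each array with Agilent Feature Extraction 12.0.3.1, and the deposited intensity is its processed signal, background-subtracted and not scaled between arrays. The authors also deposited a score for each of 42859 features, with mean 0 and SD 1 per array, which followed the log signal of its own array (r of 0.9996 or more) and served as an alternative only. The making of that table was not stated in what was used here.

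The expression value was log2 of the processed intensity minus the 75th percentile of the array. Control spots were left out, outlier spots were dropped, and replicate spots were averaged by probe. Probes were kept when well above background on at least 4 arrays (39589 of 56605 probes), and a gene needed values on at least 12 arrays. The brightest kept probe stood for a gene, named through RefSeq accessions (GRCm38.p6 table). The array design names an older build, so gene positions on the array were not used. limma 3.58.1 (R 4.3.3) fitted 1 mean per group over 16 arrays with 12 residual degrees of freedom, with two-sided tests and Benjamini-Hochberg adjustment over 17436 genes. It was tested on simulated data. The number of arrays limits the precision.

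The 9 genes, the gene lists and the tests were chosen with earlier results of these data known. The text names each of the 9 genes, and of each list every gene called in the averaged comparison. The 2 genes with the smallest p in that comparison were also to be taken from each list, but for some lists not both are named. Some genes of the lists are not reported here. Lists of other brain cell types were used for checks and are given in the closing section. The replicate number is also the slide column. Same-numbered mice did not all deviate together (24 same-numbered pairs of mice, r from -0.60 to 0.52, 11 over 0.1), so the numbers were not used as pairs. Between sham and irradiated mice of 1 number, r was 0.52, 0.053, 0.27 and 0.37 in labelled knockouts and 0.20, -0.60, -0.096 and 0.058 in wild type. The alternatives were normexp background correction, quantile and median scaling, the deposited scores, other filters on dim probes, outlier spots kept, other variance models, array weights, a block for the replicate number, other choices of probe, fits of the compared groups alone, and each array left out. Normexp was run on median spot signals in place of the planned mean signals.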

Additional observations from a re-analysis of the deposited data

Results flagged for a closer look

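Each gene was checked in each group for a mouse far from the other 3, by Dixon's ratio at its 95% critical value, and 3 of 36 groups had one, where chance gives about 1 in 20. Laptm5 in wild-type sham replicate 3 stood at -1.04, below the other 3 mice at -0.78 to -0.77. Laptm5 in irradiated labelled knockout replicate 1 stood at -0.73, below the others at -0.46 to -0.42. Tyrobp in irradiated wild-type replicate 3 stood at 1.57, above the others at 1.38 to 1.39. These 3 values are given without an explanation.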

How the results depend on the processing

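No averaged change of the 9 genes changed sign in any of 29 alternatives, and no called value changed direction. The count of the 9 genes called in the averaged irradiation comparison was 1 (Ctss). It was 0 with normexp, with the median of each array, with no filter on dim probes, with every kept probe on its own and without the 2 dimmest arrays (an alternative chosen after seeing the data), and 0 to 1 when single arrays were left out. The adjusted p of Ctss in these settings was 0.073, 0.99994, 0.073, 0.058 and 0.084, over a range of 0.011 to 0.99994 for all alternatives. After irradiation, the genotype count was 0, and 2 with normexp: Cd68 (adjusted p = 0.045) and Lyz2 (adjusted p = 0.024), where genes called rose from 205 to 3382. Over all alternatives the genes called ran from 9 to 21 for irradiation in wild type (13 as reported), 6 to 25 in labelled knockouts (21), 26 to 84 averaged (53), 2 to 45 for genotype in sham (9), and 4 to 3382 after irradiation (205). With the replicate number as a block, Ctss had an adjusted p of 0.049 and 1 of the 9 genes was called, so the block changed no call on the 9 genes. Scaling to the median of each array moved the median of all genes to 0.12 for irradiation in wild type, to -0.066 in labelled knockouts and to -0.23 for genotype after irradiation. On that scale some differences lay on the other side of 0 from the reported values. For irradiation within a genotype these were Ctsb in wild type at 0.096 and Cd68 in labelled knockouts at -0.040. Cd68 in labelled knockouts did so with normexp too, at -0.038. For labelled knockout minus wild type after irradiation they were Ctsb at -0.016, Ctsd at -0.012 and Cd52 at -0.14, and in sham Laptm5 at -0.0085. The interactions of Ctsb, Ctsd, Trem2 and Tyrobp changed sign as well with the median. The causes of these changes were not tested. Lyz2 gave the lowest signal of the 9 and is the value most limited by brightness over background.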

Other observations

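The difference between Ctss and Laptm5 on an array, a pair chosen after their values were seen, was smaller after irradiation. Ctss minus Laptm5 was 4.76, 5.17, 5.28 and 5.04 in wild-type sham and 4.41, 4.43, 4.20 and 4.13 in wild type after IR. In labelled knockouts it was 5.21, 4.60, 4.77 and 4.61 after sham and 4.07, 3.94, 4.08 and 4.03 after irradiation. The sham and irradiated mice did not overlap in either genotype. Because the pair was picked for its opposite changes, such separation was close to given beforehand. No test and no share of other gene pairs is given, so the values are a description only. A difference within an array does not say which of the 2 probes changed.

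Other cell types of the cortex were read from lists of their own on the averaged irradiation comparison. All 4 oligodendrocyte precursor genes were lower (median -0.47), and 2 fell: Neu4, a sialidase, by 0.60 ± 0.085 (adjusted p = 0.0040), and Gpr17, a receptor of maturing precursors, by 0.63 ± 0.10 (adjusted p = 0.0098). Neurons (7 genes, median 0.031, Snap25 at -0.11 ± 0.10 and Tubb3 at 0.090 ± 0.10), astrocytes (7, 0.057, Gja1 at -0.23 ± 0.098 and Aldoc at 0.11 ± 0.062) and mature oligodendrocytes (6, 0.011, Mag at -0.11 ± 0.28 and Cnp at -0.067 ± 0.24) had no called gene. All 6 oligodendrocyte genes were lower in wild type after IR (median -0.28) and all 6 higher in labelled knockouts (median 0.20), with a median interaction of 0.50 and none called. Their summed signal overlapped between the groups, at 81.6 to 138 in wild-type sham and 77.9 to 118 in wild type after IR. In labelled knockouts it was 74.3 to 137 after sham and 91.6 to 156 after IR. Endothelium (6 genes, median -0.067), pericytes and smooth muscle (4, -0.14) and choroid plexus (5, 0.30) had no called gene either. Among these, the tight junction gene Cldn5 was at -0.41 ± 0.11 (adjusted p = 0.34), Pdgfrb at -0.23 ± 0.090 and Ttr at 0.70 ± 0.52.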
